A study of Mus musculus with 16 samples.

Results

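The 6118 regions described here were called as Hoxb13 peaks in the second Paro/Neo library alone and lay more than 5 kb from either end of every protein-coding gene of the mouse build mm10. Peaks of the 4 Hoxb13 libraries that shared at least 1 bp on chromosomes 1 to 19, X and Y were merged into 17634 regions, of which these distal regions were 34.7%. Of the 6118, 3887 (63.5%) lay inside a protein-coding gene, deeper than 5 kb from both of its ends, and 2231 lay outside genes. The members were selected on the presence of a peak in 1 list and its absence from 3 others, so they are the calls of a single library, and no test of those calls was made.

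Hoxb13 is a homeodomain transcription factor best known from the posterior body axis and the prostate, and Meis1 is a homeodomain factor of the TALE class that binds DNA beside Hox proteins as a cofactor. In the heart of the newborn mouse both are known as factors that restrain the division of cardiomyocytes as the muscle matures. Sites of transcription factor binding far from gene ends often lie in enhancers, which act on a promoter from a distance, so the nearest gene is a label for a position and not a known target.

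The libraries came from chromatin immunoprecipitation and sequencing (ChIP-seq) of mouse heart ventricles. Mice received Paro/Neo, the aminoglycoside antibiotics paromomycin and neomycin, at 150 mg/kg 2 times a day from postnatal day 7 for 7 days, or the vehicle PBS, and hearts were taken on day 15. Hoxb13 and Meis1 each had 2 Paro/Neo and 2 vehicle libraries with a peak list. The sources used here name no strain, sex or genotype. The labels assign the ventricles of 2 hearts to each sample as biological duplicates, which may mean a pool or 1 heart per duplicate. The Meis1 antibody is labelled Meis1/2, so its peaks may include Meis2. The Meis1 and Hoxb13 samples form 2 sets by the style of their titles, and differences of antibody and of set cannot be told apart.

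The library that defines the regions stood apart in the length of its list. The Hoxb13 lists held 821 and 16963 peaks for Paro/Neo, against 5202 and 1121 for vehicle. The Meis1 lists held 1541 and 1025 peaks for Paro/Neo, against 3529 and 3176 for vehicle. Sequencing depth is unknown, so an absent call in a short list does not show that a site was unbound. The names of the second Meis1 lists carry the letter of the other group. Groups follow the labels.

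The rule keeps the regions away from the ends of protein-coding genes, but 325 of them (5.31%) covered part of a RefSeq promoter window, the 250 bases before and 50 bases after a start site, at a start inside a gene or of a non-coding gene. Of 32851 such windows, 387 (1.18%) shared a base with a distal region. A Meis1 peak of any library lay in 9.85% of the 325 regions (exact binomial 95% interval 6.83% to 13.6%), against 13.0% of the 5793 other distal regions. The 387 comprised 210 windows of 192 protein-coding genes (0.988% of the windows of such genes) and 177 windows of 148 lncRNA genes (1.53%). The 5 internal starts below are a choice among those of genes with a heart, signalling or cell cycle role, shown because they span the range from no Meis1 peak to a peak in all 4 Meis1 libraries. They were chosen after their values were seen. Sequences are from RefSeq, build GRCm38.p6, written 5′ to 3′ on the strand of the gene, and capitals mark matches on either strand to CAATAAA (a Hoxb13 motif), TGACAG (Meis1), AGATAAG (a motif of Gata factors), GGAATG (Tead), TGACTCA (AP-1) or CCAAT, of which CCAAT and CAATAAA can share bases.
Rgs3, chr4:62619422-62619721, plus strand: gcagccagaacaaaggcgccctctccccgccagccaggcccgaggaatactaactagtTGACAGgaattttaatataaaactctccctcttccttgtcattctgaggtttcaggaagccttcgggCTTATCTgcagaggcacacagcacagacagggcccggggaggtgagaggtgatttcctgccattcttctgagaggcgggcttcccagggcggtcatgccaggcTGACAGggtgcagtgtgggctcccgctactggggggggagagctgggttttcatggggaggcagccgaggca
Cacnb2, chr2:14823842-14824141, plus strand: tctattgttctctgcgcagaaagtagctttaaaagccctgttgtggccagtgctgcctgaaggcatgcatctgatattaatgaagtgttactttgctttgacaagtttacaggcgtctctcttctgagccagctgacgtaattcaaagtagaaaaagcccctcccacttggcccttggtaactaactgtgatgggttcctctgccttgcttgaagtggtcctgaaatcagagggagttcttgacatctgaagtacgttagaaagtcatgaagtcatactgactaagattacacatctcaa
Mylk3, chr8:85365275-85365574, minus strand: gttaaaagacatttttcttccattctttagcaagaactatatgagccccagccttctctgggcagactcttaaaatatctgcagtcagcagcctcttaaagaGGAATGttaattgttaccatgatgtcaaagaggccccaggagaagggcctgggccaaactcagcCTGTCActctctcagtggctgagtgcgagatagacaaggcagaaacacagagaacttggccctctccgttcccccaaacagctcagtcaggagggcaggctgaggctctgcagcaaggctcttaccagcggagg
Ccnd3, chr17:47593217-47593516, plus strand: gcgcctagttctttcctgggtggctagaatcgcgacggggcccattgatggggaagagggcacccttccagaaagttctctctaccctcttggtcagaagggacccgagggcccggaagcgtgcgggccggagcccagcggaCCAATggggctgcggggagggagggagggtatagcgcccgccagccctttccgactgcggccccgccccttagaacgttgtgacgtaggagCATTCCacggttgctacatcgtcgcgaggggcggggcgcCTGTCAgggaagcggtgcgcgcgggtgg
Rcan1, chr16:92400029-92400328, minus strand: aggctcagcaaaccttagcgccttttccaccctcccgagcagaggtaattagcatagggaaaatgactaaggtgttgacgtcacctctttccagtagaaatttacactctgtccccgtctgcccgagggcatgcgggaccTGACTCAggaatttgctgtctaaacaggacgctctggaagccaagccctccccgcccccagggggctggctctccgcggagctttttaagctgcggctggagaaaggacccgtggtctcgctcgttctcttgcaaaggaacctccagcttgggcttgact

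The Cacnb2 window lay wholly in a region of 966 bp with a Hoxb13 fold enrichment of 3.20 and held none of the 6 motifs. Cacnb2 encodes the beta subunit of the cardiac L-type calcium channel. The region held a peak in every Meis1 library, with folds of 6.08 and 8.63 in Paro/Neo and 8.21 and 8.36 in vehicle. Folds are the authors' values and rank peaks only within their own list.

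The Mylk3 window shared 276 of its 300 bases with a region of 907 bp and fold 3.10, and it held one Tead and one Meis1 match. Mylk3 encodes the cardiac myosin light chain kinase. Its region also had a peak in each Meis1 library, with folds of 4.10 and 5.38 in Paro/Neo and 7.08 and 6.58 in vehicle.

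The regions at the other 3 windows had no Meis1 peak in any library. The window of Rgs3, a regulator of G protein signalling, lay in a region of fold 4.30 and held 2 Meis1 matches and 1 Gata match. The window of Ccnd3, a D-type cyclin that drives entry into the cell cycle, shared 296 bases with a region of fold 3.58. The window of Rcan1, an inhibitor of calcineurin, shared 127 bases with a region of fold 2.62 and held one AP-1 match.

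Over all 387 windows the letters of the Hoxb13 motif were about as rare as in the other windows in regions of the same library. CAATAAA, on either strand, was in 2.07% of the windows in distal regions (exact binomial 95% interval 0.897% to 4.03%), against 2.23% of the 7256 other windows in regions of the same library and 4.60% of all windows. TGACAG was in 19.9% (16.0% to 24.2%), against 15.1% and 19.2%. TGACTCA was in 6.20% (4.01% to 9.09%), against 2.52% and 5.20%, and GGAATG in 15.8% (12.3% to 19.8%), against 10.8% and 14.7%. AGATAAG was in 1.29%, against 1.12% and 3.04%, and CCAAT in 34.4%, against 40.2% and 37.4%. The GC content of the windows in distal regions had a median of 58.3%, between the 64.0% of the other windows of the library and the 52.7% of all windows. These intervals cover counting error only, a match is a description and not a site, and the part of base composition in these shares was not tested.

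By their medians, the distal regions were narrow for their library and lay a little below the middle of its list by fold. Their fold enrichment had a median of 3.05 (quartiles 2.88 and 3.30, range 1.55 to 6.07), which placed the median region at percentile 44.9 of the library's own peaks. Regions of the same library alone but within 5 kb of a gene end had a median fold of 3.02. The 678 distal regions shared with another Hoxb13 library had 3.42, and the 3742 shared regions near gene ends had 3.40. The distal regions were also the narrowest of these classes, with medians of 381 bp in the distal regions, 461 bp in the near regions of the library alone, 804 bp in the distal shared and 822 bp in the near shared regions. The median −log10 q was 1.95 in the distal regions, against 2.14, 3.95 and 4.26 in those classes. These values chose or follow the calls and are given as a description.

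**Figure D1:**
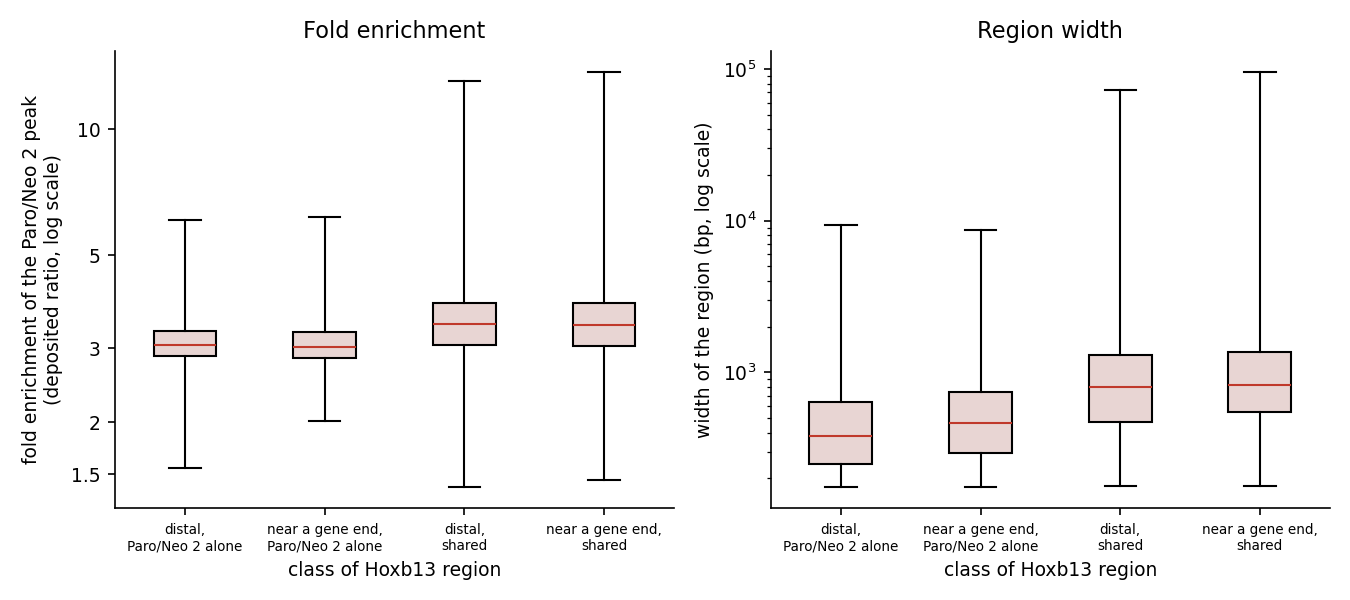
Fold enrichment and width in bp (both on log axes) of Hoxb13 regions called in Paro/Neo replicate 2, by class of region, with the median as a line, quartiles as the box and the lowest and highest value as whiskers. The distal regions of that library alone have a median fold of 3.05 and a median width of 381 bp, lower than the 3.42 and 804 bp of distal regions shared with another library.

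By the rule no region held a peak of another Hoxb13 library, and the other lists are short. The nearest peak of another Hoxb13 library was at a median of 73.7 kb, and for 41 of the 6118 regions (0.670%) it lay within 1 kb. The next distal region lay at a median of 25.8 kb, and 1469 (24.0%) had another within 5 kb. The median distance to a gene end was 29.6 kb, with 27.3 kb for the regions inside genes and 35.6 kb for those outside. Of the 2231 outside genes, 1324 lay within 50 kb of a gene, 373 between 50 and 100 kb and 534 (23.9%) beyond 100 kb.

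The regions closest to the 5 kb limit on either side are given as a description. The nearest kept regions, in Slc25a25, near Ly6i and near Cdc42ep2, lay 5.001, 5.002 and 5.009 kb from a gene end and had folds of 2.97, 2.34 and 2.85. The nearest regions that were left out, in Park7, near Arhgap8 and in Hspg2, lay 4.993, 4.992 and 4.992 kb away and had folds of 3.15, 3.38 and 2.96.

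The region of highest fold, 6.07, lay at chr18:7608798-7609073 inside Mpp7, which encodes a membrane scaffold protein of cell junctions. A region 33.9 kb from Smtn, the gene of smoothelin, a smooth muscle protein, had a fold of 5.99. The next were in Gse1 (5.75), Sgcd (5.70), Nt5dc3 (5.43) and Hivep2 (5.31), then near Pim1 (5.16), in Rtn4rl1 (5.15), near Cd83 (5.15) and near Pdgfb (5.03). Sgcd encodes delta-sarcoglycan, part of the dystrophin complex of the muscle membrane, and Pdgfb a growth factor for pericytes. Of these 10 regions, 8 had no peak in any Meis1 library, against 5335 of all 6118 distal regions (87.2%). The region in Gse1 held a peak of Meis1 Paro/Neo replicate 1 and vehicle replicate 2, with folds of 5.12 and 3.48. The region near Pim1, the gene of a growth-promoting kinase, held a peak of both vehicle libraries and of neither Paro/Neo library.

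The widest region covered 9381 bp at chr2:163359893-163369273 in Jph2, the gene of junctophilin-2, which holds the T-tubule and the sarcoplasmic reticulum of cardiomyocytes together. It had a fold of 3.32 and held peaks of all 4 Meis1 libraries, with highest folds of 7.11 and 4.76 in Paro/Neo and 8.37 and 5.87 in vehicle. The other 9 distal regions of Jph2 held none. A region of 6057 bp in Ryr2, also among the 3 widest, had no Meis1 peak. The 3 regions farthest from a gene lay in gene deserts, 2125 and 1812 kb from the protocadherin gene Pcdh20 and 1629 kb from Cntnap5a. Their folds were 2.90, 2.90 and 2.97, and none held a Meis1 peak.

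The regions named 3036 of 21887 protein-coding genes as nearest gene, against which every gene list below is read (background 13.9%). Gene length went with this share. A distal region was nearest to 3.87% of genes of up to 10 kb, 11.9% of those from 10 to 50 kb, 30.1% of those from 50 to 200 kb and 47.1% of longer genes, and genes over 10 kb had a background of 19.5%. A region more than 5 kb from both ends can lie only inside a gene over 10 kb. Most genes, 1821, had a single region, while 42 genes had 10 or more and held 738 regions between them.

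A gene of the calcium cycle of heart muscle was nearest to the most distal regions. Ryr2, the gene of the calcium release channel of the sarcoplasmic reticulum, had 118, 116 of them inside the gene at chr13:11553099-12106945, with folds from 2.71 to 4.01. They covered 30.3% of the gene, at 20.9 regions per 100 kb, against 0.377 per 100 kb over all gene bodies. That background also counts short genes and gene ends, where the rule allows no region, and their part in the contrast was not tested. Among other genes with many regions, the density was 16.0 per 100 kb in Rbm20 and 5.41 in Cacna1c. None of the 118 held a Meis1 peak. All 4 Hoxb13 libraries had peaks in Ryr2, with 2 and 132 in Paro/Neo and 24 and 3 in vehicle. Per 1000 peaks of the list, this was 2.44 and 7.78 in Paro/Neo and 4.61 and 2.68 in vehicle, so the groups overlapped. The Meis1 lists had 0 and 1 peaks there in Paro/Neo and 1 and 1 in vehicle.

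The other genes named for their number of regions had 17 to 34 each. Tns1, the gene of the focal adhesion protein tensin-1, had 34. Rbm20, which encodes a splicing factor of titin and Ryr2 transcripts, and Cacna1c, the pore of the L-type calcium channel, had 33 each. Ablim1, the gene of an actin-binding protein, and Pde4dip, that of a protein of the centrosome and the myofibril, had 23 each. Qk (20) encodes an RNA-binding splicing factor, Zbtb16 (18) a zinc finger factor and Myocd (17) myocardin, the coactivator of serum response factor in cardiac and smooth muscle.

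The length of the other lists limits what these counts compare. In Ablim1 and in Pde4dip the second Paro/Neo library had 25 peaks each, and no peak of the other 3 Hoxb13 libraries shared a base with either gene. At an end of Ablim1, 1 merged region was shared with peaks of other libraries that lay outside the gene. In Cacna1c the Hoxb13 peaks numbered 0 and 40 in Paro/Neo and 5 and 2 in vehicle. Myocd had 0 and 16 Hoxb13 peaks in Paro/Neo and 0 and 0 in vehicle, while every Meis1 library had peaks in it, 3 and 4 in Paro/Neo and 3 and 5 in vehicle. A Meis1 peak lay in 3 of the 17 distal regions of Myocd. Among the genes named here for their number of regions, Ryr2 and Cacna1c were those whose distal regions held no Meis1 peak.

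**Figure D2:**
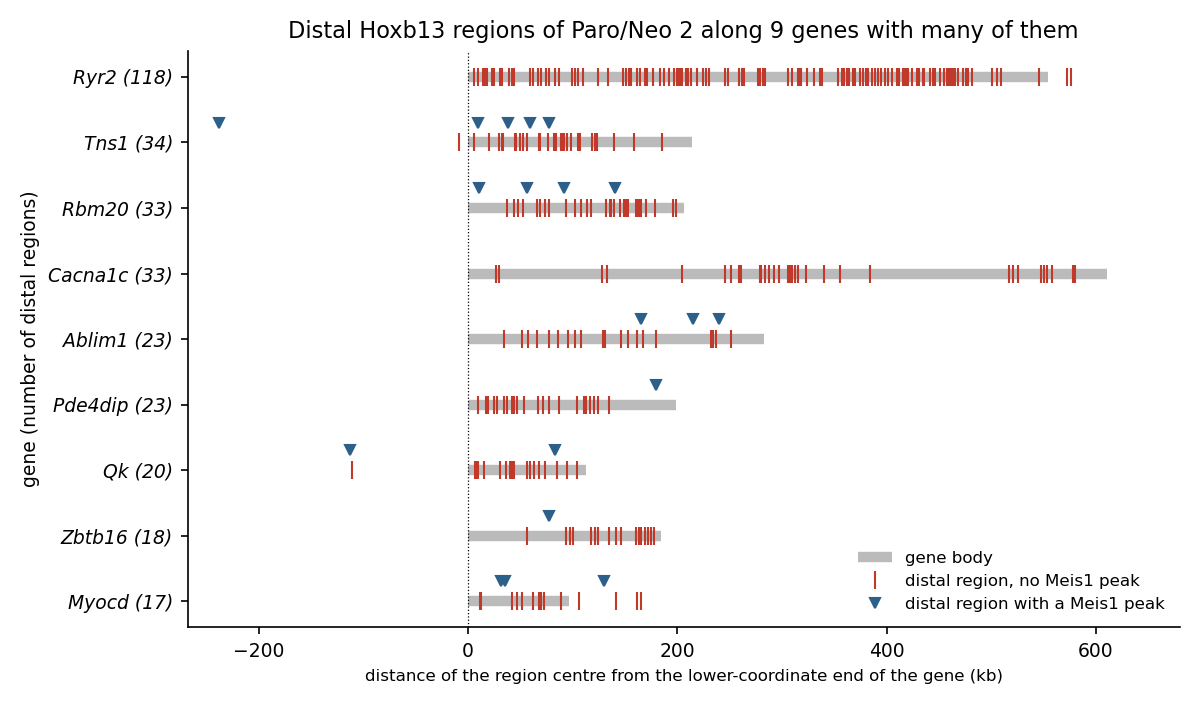
Position of each distal Hoxb13 region of Paro/Neo replicate 2 along 9 genes with many of them, in kb from the lower-coordinate end of the gene, with gene bodies as grey bars, regions without a Meis1 peak as ticks, regions with one as triangles and the number of regions beside the gene name. The 118 regions of Ryr2 run through most of the gene and none holds a Meis1 peak, while 3 of the 17 of Myocd do.

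Of 18 gene lists, those of cardiac transcription factors, smooth muscle and calcium handling had the highest shares of genes nearest to a distal region. The cardiac transcription factor list had 15 of 21 (71.4%), with 67 regions, 12 of which held a Meis1 peak. Over all distal regions 783 of 6118 (12.8%) did, and the difference was not tested. Prdm16, a factor of the compact ventricular wall, had the region of highest fold in the list (4.34), followed by Myocd (4.09) and Gata4 (3.80). The 3364 bp Myocd region held peaks of 3 Meis1 libraries, with a fold of 4.83 in Paro/Neo replicate 2 and folds of 4.87 and 4.63 in vehicle. Hand2, a factor of ventricle formation, was nearest to 5 regions, 4 of them with a Meis1 peak and 2 with peaks of all 4 libraries. Tbx5, Mef2a, Mef2c, Nkx2-5 and Gata6, core factors of the cardiac gene program, were nearest to 1, 2, 1, 4 and 9 regions.

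Calcium handling and conduction had 16 of 23 genes (69.6%) and 227 regions, of which Ryr2 alone held 118. Folds reached 4.01 in Ryr2 and 3.81 in Jph2. Slc8a1, the sodium-calcium exchanger, had 11 regions, Jph2 10, Cacnb2 9 and Casq2, the calcium store protein of the reticulum, 8. Over the list, 11 of the 227 regions held a Meis1 peak, against 783 of all 6118 distal regions (12.8%). None of the 11 was among the 118 regions of Ryr2, so this 1 gene weighs on the share of the list. Of the 9 regions of Cacnb2, 4 held a Meis1 peak, and 3 of these had peaks of all 4 Meis1 libraries. Atp2a2, the gene of the calcium pump SERCA2a, had no region inside it but was nearest to 3.

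Structural and metabolic genes were named at lower shares. The sarcomere list had 12 of 26 genes (46.2%) and 55 regions, with 16 in Myom1, which encodes an M-band protein, and 13 for Actn2, the gene of alpha-actinin of the Z-disc. A Meis1 peak lay in 3 of the 55 regions. Folds reached 4.12 in Myoz2 and 3.52 in Mybpc3, both genes of sarcomere-bound proteins. Fatty acid oxidation had 9 of 22 (40.9%) and 47 regions, 5 of them with a Meis1 peak. Of the 47, 15 were in Ppargc1b and 10 for Ppargc1a, coactivators of mitochondrial genes, and 12 for Cd36, a fatty acid carrier. Glycolysis and HIF had 9 of 24 (37.5%), led by a region of fold 4.59 near Egln3, a prolyl hydroxylase that marks HIF for decay, which held peaks of 3 Meis1 libraries.

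Among growth and signalling lists, cell cycle drivers had 6 of 20 (30.0%), among them Mycn (3.87), Ccnd3 (3.58) and Myc (3.08), where the values are the highest folds. CDK inhibitors and pocket proteins, which hold the cycle back, had 0 of 10, with a median gene length of 7.81 kb. The Hippo pathway had 7 of 18 (38.9%), with Tead1 nearest to 5 regions and highest folds of 3.33 for Tead1, 3.32 for Vgll4 and 3.26 for Lats2. ErbB, IGF and insulin signalling also had 7 of 18, with Igf2r (3.45), Irs2 (3.36) and Egfr (3.31) leading. Calcineurin and NFAT had 4 of 10 (40.0%), with the highest folds in Nfatc1 (3.64), Rcan2 (3.33) and Nfatc2 (3.17). The Hippo, ErbB and calcineurin lists had median gene lengths of 64.6, 73.9 and 73.0 kb. Genes from 50 to 200 kb had a background of 30.1%.

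Marker lists of other cells and tissues differed among themselves. Smooth muscle and pericyte markers had 7 of 10 (70.0%), with highest folds of 3.84 in Notch3, 3.43 in Myh11 and 3.10 in Pdgfrb. Endothelial markers had 12 of 19 (63.2%), led by Flt1 (4.62), Sox17 (4.07) and Erg (3.83). Fibroblast markers had 8 of 17 (47.1%), led by Loxl1 (3.67), Fbln2 (3.53) and Pdgfra (3.44). Leukocyte markers had 1 of 16 (6.25%), namely Ptprc (3.60) at 406 kb. Neuron genes, with a median length of 513 kb, had 5 of 15 (33.3%), with Dlg2 (3.34), Dcc (3.29) and Ctnna2 (3.13), and liver genes had 1 of 12, namely Apob (3.03).

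Among homeobox genes the TALE list had 3 of 11 (27.3%) and the Hox list 0 of 39, at a median gene length of 3.74 kb. Hoxb13 was itself the nearest gene of no distal region. Meis1 was nearest to 4, with folds of 2.80 to 3.35. One of them lay inside the gene, and another, 283 kb away, held a Meis1 peak of vehicle replicate 1. Pknox2, another TALE gene, had 2 regions, the higher of fold 2.92.

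**Figure D3:**
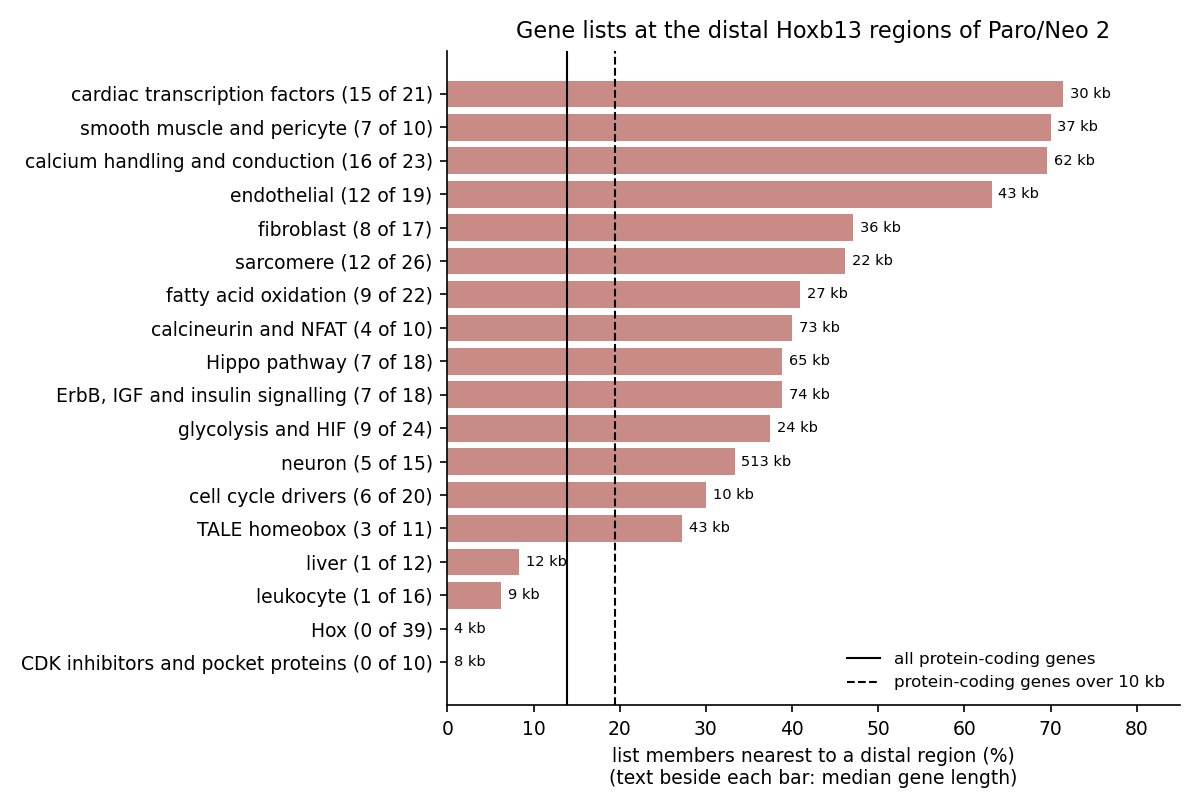
Share of each gene list, in percent, whose members are nearest gene of at least 1 distal Hoxb13 region of Paro/Neo replicate 2, with the median gene length of the list beside each bar and the shares over all protein-coding genes (13.9%) and over genes longer than 10 kb (19.5%) as lines. Cardiac transcription factors reach 71.4% at a median length of 30.2 kb, neuron genes 33.3% at 513 kb, and Hox genes 0%.

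Meis1 peaks were more frequent in the distal regions than over Hoxb13 regions as a whole. Of the 6118, 783 (12.8%, exact binomial 95% interval 12.0% to 13.7%) held a peak of at least 1 Meis1 library, against a background of 8.44% over all merged Hoxb13 regions. The share was 15.9% in the regions outside genes and 11.0% in those inside. It was 4.34% (3.86% to 4.87%) in regions of the same library alone near gene ends, 17.1% (14.3% to 20.2%) in distal shared and 7.94% (7.09% to 8.85%) in near shared regions. In distal regions absent from that library it was 3.11%. Regions are not replicates, so these shares were not tested, and the intervals cover counting error only. With a window of 250 bp to each side of the centre, which takes the width of the region out, the shares were 12.0%, 4.05%, 13.4% and 5.96% for the distal alone, near alone, distal shared and near shared regions.

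Distance from a gene end divided the regions of the library alone into a lower and a higher band. Below 1 kb 3.84% held a Meis1 peak, and from 1 to 5 kb 5.36% did. From 5 to 10 kb the share was 10.4%, and from 10 kb on it was 13.1%, 12.8%, 14.0% and, beyond 100 kb, 13.7%, with overlapping intervals. In regions shared with another library the share was 7.76% below 1 kb and 29.5% beyond 100 kb, the last over 78 regions (19.7% to 40.9%).

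**Figure D4:**
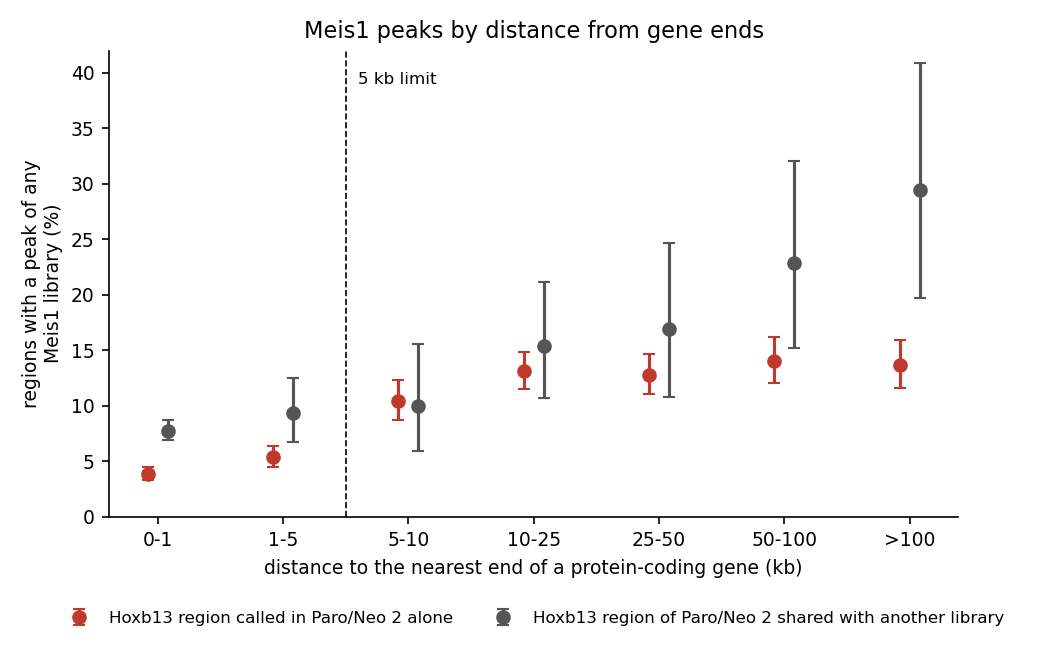
Share of Hoxb13 regions of Paro/Neo replicate 2 that hold a peak of any Meis1 library, in percent, by distance to the nearest end of a protein-coding gene in kb, with exact binomial 95% intervals as bars. Regions of that library alone lie at 3.84% and 5.36% below the 5 kb limit and between 10.4% and 14.0% above it.

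Within the distal regions the share with a Meis1 peak was 10.7%, 9.09%, 13.3% and 18.2% from the lowest to the highest quartile of Hoxb13 fold. Regions with a peak of no Meis1 library had a median Hoxb13 fold of 3.04, and those with 4 had 3.15. Meis1 peaks in them lay above the middle of their own lists by fold, at median percentiles of 61.5 and 59.7 in Paro/Neo and 60.8 and 58.3 in vehicle. The requirement of overlap bounds the distance between the centres of the peak and of the region, whose medians were 94.5 and 110 bp in Paro/Neo and 113 and 107 bp in vehicle.

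Peaks of all 4 Meis1 libraries lay in 165 distal regions, which is 2.70%, against a background of 1.50%. Numbers for 3, 2 and 1 libraries were 130, 194 and 294. The highest Hoxb13 fold among the 165 was 4.68, 31.8 kb from Lrrc74a. Next came regions in Sh3kbp1 (4.38), Pkp2 (4.32) and Cep85l (4.31), near Foxo6 (4.31), in Lclat1 (4.20), near Ppm1k (4.19), Disp1 (4.12) and Rtn4 (4.08), and in Apbb2 (3.99). Pkp2 encodes plakophilin-2 of the cardiac desmosome, and its region at chr16:16256134-16257021 had Meis1 folds of 5.62 and 6.98 in Paro/Neo and 6.08 and 8.66 in vehicle. The region in Cep85l lay 12.4 kb from Pln, the gene of the calcium pump inhibitor phospholamban, and had Meis1 folds of 5.61 and 4.58 in Paro/Neo and 3.66 and 6.32 in vehicle. The region in Lclat1, an acyltransferase of cardiolipin, had Meis1 folds of 9.93 and 8.06 in Paro/Neo and 10.9 and 13.4 in vehicle. They were the highest of the 10 regions in every library but Paro/Neo replicate 2, where the region near Rtn4 had 8.80.

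Per library, a Meis1 peak was held by 300 (4.90%) and 217 (3.55%) of the distal regions in Paro/Neo, against 611 (9.99%) and 604 (9.87%) in vehicle. The backgrounds over all Hoxb13 regions were 2.85% and 2.35% in Paro/Neo and 6.35% and 6.06% in vehicle. Means were 4.23% ± 0.959 in Paro/Neo and 9.93% ± 0.0809 in vehicle (SD, n = 2 each), a difference of −5.70 percentage points. The groups did not overlap. With every Meis1 list cut to the length of the shortest by its own ranking, the difference was −0.515 points. Over the 6 orders of the libraries an exact permutation test, two-sided, gave p = 0.333, the smallest this design allows, and p = 0.333 after Benjamini-Hochberg adjustment over 2 comparisons.

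The vehicle Meis1 lists were also the longer ones, and the share of each list that fell in the distal regions did not follow the same direction. It was 19.5% and 21.2% of the Paro/Neo peaks, against 17.4% and 19.1% of the vehicle peaks. Means were 20.4% ± 1.16 in Paro/Neo and 18.3% ± 1.25 in vehicle (SD, n = 2 each), a difference of 2.09 points (exact permutation p = 0.333, adjusted 0.333). With every Meis1 list cut to the length of the shortest, this difference was −3.07 points. It was 1.28 without Meis1 Paro/Neo replicate 2 and 1.21 without Meis1 vehicle replicate 1. With the second Meis1 replicates exchanged, as their file naming has them, the difference in the share of distal regions was 0.621 points (exact permutation p = 1) and that in the share of the list 0.0676 points. The labels speak of biological duplicates but do not settle whether each library is a separate heart, so the independence of the libraries is not known. With n = 2 in each group, p = 0.333 is the smallest value this permutation test can give.

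**Figure D5:**
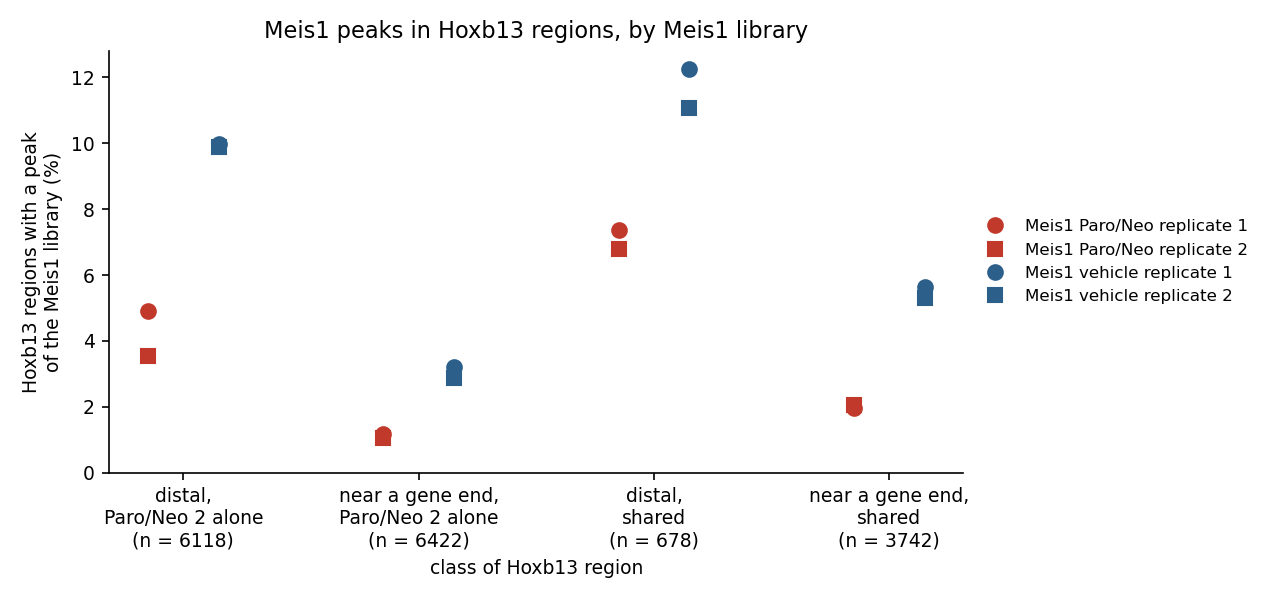
Share of Hoxb13 regions that hold a peak of each Meis1 library, in percent, by class of region, with 1 point per Meis1 library and Paro/Neo left of vehicle. In the distal regions of Paro/Neo replicate 2 alone the Paro/Neo libraries lie at 4.90% and 3.55% and the vehicle libraries at 9.99% and 9.87%.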

How the data were processed

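The files were broadPeak lists, 1 per immunoprecipitated library. The submitters' processing notes name the build mm10 and the tools MACS2, HOMER, Bowtie2, Picard 1.127 and FastQC 0.11.5. The sources used here give neither their options nor the control input. In each deposited list, a peak has a fold enrichment (a ratio), −log10 p-value and −log10 q-value, and a score, all computed by the authors. The score was not used. Inputs were not analysed here.

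With Python 3.11.15, numpy 2.4.6, pandas 2.3.3 and scipy 1.17.1, the Hoxb13 peaks were merged at 1 bp of overlap. Distances were taken to both ends of 21887 RefSeq protein-coding genes (GRCm38.p6, which has mm10 coordinates). That table has no exons, so positions are given as inside or outside a gene. Percentiles rank the fold within its own list. A Meis1 peak was held at 1 bp of overlap. Intervals are exact binomial (Clopper-Pearson). Libraries were compared by exact two-sided permutation tests. The scripts were tested on simulated intervals. Alternatives covered distance, q-value, list length, overlap and left-out libraries. A reading limited to regions outside gene bodies and a fixed window were added after seeing the data.

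The members and lists were chosen with earlier results of these data known. All 331 list entries matched a gene. Named regions were the 10 of highest fold, the 10 of highest fold with all 4 Meis1 libraries, the 3 widest, the 3 farthest from a gene, and 3 on each side of the 5 kb limit. Named genes were the 10 with most regions, up to 3 per list by fold, Meis1 and Hoxb13. A few items that these rules name are not reported here. Other genes, and the printed windows, were chosen after their values were seen. Motifs were counted in promoter windows alone, since no genome was used here.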

Additional observations from a re-analysis of the deposited data

How the results depend on the processing

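The number of distal regions was 2099 beyond 50 kb from a gene end, 3157 at a −log10 q of at least 2 in all lists, 2907 with that limit in Paro/Neo replicate 2 alone, 1416 with lists cut to the second longest and 2231 outside gene bodies (chosen after seeing the data). The genes named were 1018, 1935, 1833, 1109 and 1492, and the share with a Meis1 peak was 13.9%, 17.8%, 17.9%, 18.5% and 15.9% in the same settings. That share was 10.9% beyond 1 kb, 11.4% with an overlap of at least 50% of the shorter interval, 14.1% within 1 kb and 7.99% for peaks of at least 2 Meis1 libraries. At a −log10 q of at least 2 the median fold was 3.32. Leaving out 1 library at a time gave 6123 to 6642 regions, 3038 to 3217 genes, a share of 10.4% to 12.9%, a Paro/Neo minus vehicle difference of −6.38 to −5.03 points in the share of regions and 1.21 to 2.98 points in the share of the list. With lists cut to the shortest these 2 differences were −0.515 and −3.07, and with the second Meis1 replicates exchanged 0.621 and 0.0676. The cause was not tested. With the replicate number as a block the differences were −5.70 and 2.09 (exact p = 0.5 each, the smallest possible). Same-numbered libraries did not deviate together (r = −0.0028 over 5069 regions, 2 pairs), so the numbers are not shown to pair samples. Depth is unknown, and the regions rest on 1 library.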

Other observations

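Small RNA genes lay in a few of the distal regions. A set of 15 tRNA genes lay in 10 regions, none of which held a Meis1 peak. Over all distal regions 87.2% held none, the share against which such small counts are read. One region of 1274 bp and fold 3.31, 15.2 kb from Trim55, held 4 tRNA genes. Inside Tex14 on chromosome 11, 3 regions held Rnu1a1, Gm22068 and Rnu3b1, annotated as small nuclear RNA genes, with folds of 4.13, 4.67 and 3.36. A miRNA gene lay in 2 regions, neither with a Meis1 peak. Their mature sequences are from RefSeq, build GRCm38.p6, with the seed, bases 2 to 8, in capitals, and show that they share no seed.
mmu-miR-1960, chr5:30170751-30170772, plus strand, inside Hadhb, region fold 3.17: cCAGUGCUguuagaagagggcu
mmu-miR-6236, chr9:110281353-110281371, plus strand, 18.6 kb from Cspg5, region fold 2.28: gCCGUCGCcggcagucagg

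Genes of near-identical sequence such as the tRNA and small nuclear RNA genes share reads with their copies, so these positions are uncertain. In all, 906 distal regions (14.8%) overlapped a non-coding gene. The distal regions were 6118 of the 16960 regions called in the library. By chromosome they were 47.9% of its regions on chromosome 18 and 47.6% on chromosome 13, against 27.8% on chromosome 11 and 20.4% on X.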
